A study of Rattus norvegicus with 6 samples.

Results

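Mesothelial cells form the thin sheet that covers the lung surface, the visceral pleura. The genes described here are 7 that mark this cell type, Msln, Upk3b, Upk1b, Lrrn4, Wt1, Bnc1 and Calb2, taken by symbol from the 19828 entries of a table of total lung. All 7 had an entry. They were followed in rats of 2 genotypes, Ahr-KO (3 libraries) and WT (3 libraries). Both groups were Sprague-Dawley rats given the Sugen-Hypoxia (SuHx) treatment and were labelled day 56. SuHx combines a VEGF receptor inhibitor with low oxygen and is used in rats to bring about pulmonary arterial hypertension. The product of Ahr is a transcription factor that is switched on by dioxins and other ligands, and the labels give neither the allele nor the cells in which it was lost, nor age or sex. Untreated rats were not analysed here, so the comparison asks how genotype was related to these genes under SuHx.

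The mesothelium arises from mesoderm, but its cells are joined like an epithelium and carry keratins beside mesenchymal proteins such as vimentin and N-cadherin. They release hyaluronan and lubricating glycoproteins that let the lung slide within the chest. In the embryonic mouse lung they are a source of mesenchymal cells, and in injured pleura they can take on fibroblast traits. Of the 7 genes, 4 encode proteins of the cell surface (Msln, Upk3b, Upk1b and Lrrn4), 2 encode zinc finger transcription factors (Wt1 and Bnc1) and Calb2 encodes the calcium-binding protein calretinin.

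Values are normalised gene-level values, with each library named by the number its column carries (0, 1 or 2). About 14.2 to 23.6 M reads lay behind each Ahr-KO library and 12.9 to 21.9 M behind each WT library, as estimated from the smallest recurring step between values, and library 2 was the shallowest of each group. Cyp1a1, the best known AHR target, stood at 0.83 to 10.5 in Ahr-KO libraries and 23512 to 37694 in WT libraries, while Ahr itself averaged 3299 ± 799 in Ahr-KO and 3065 ± 288 in WT (SD, n = 3 each; adjusted p = 0.81, limma-trend), with no value here that locates the edit. The tissue label was checked with Sftpc, the surfactant gene of alveolar type 2 cells, which stood at 299807 to 345211 in Ahr-KO libraries and 230761 to 285880 in WT libraries. In bulk tissue, fewer cells of a type and less RNA per cell cannot be told apart.

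None of the mesothelial genes differed between genotypes beyond the test threshold. Of the 7, 6 were tested and 0 passed, against 10.8% of all 15386 tested genes in either direction (limma-trend, Benjamini-Hochberg adjusted p under 0.05). At an unadjusted p under 0.05, 2 members passed, against 27.9% of all tested genes. These were Upk3b and Wt1, both lower in Ahr-KO, as were 14.6% of all tested genes at that p. The log2 fold change, Ahr-KO over WT on log2(value + 1), was below 0 for 6 of 6 tested members and for 49% of all tested genes. Its median was -0.40 over the tested members and 0.01 over all tested genes, whose quartiles were -0.28 and 0.23. Since the members were chosen together as markers of one cell type, they are not 6 independent observations of the genotypes.

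**Figure D1:**
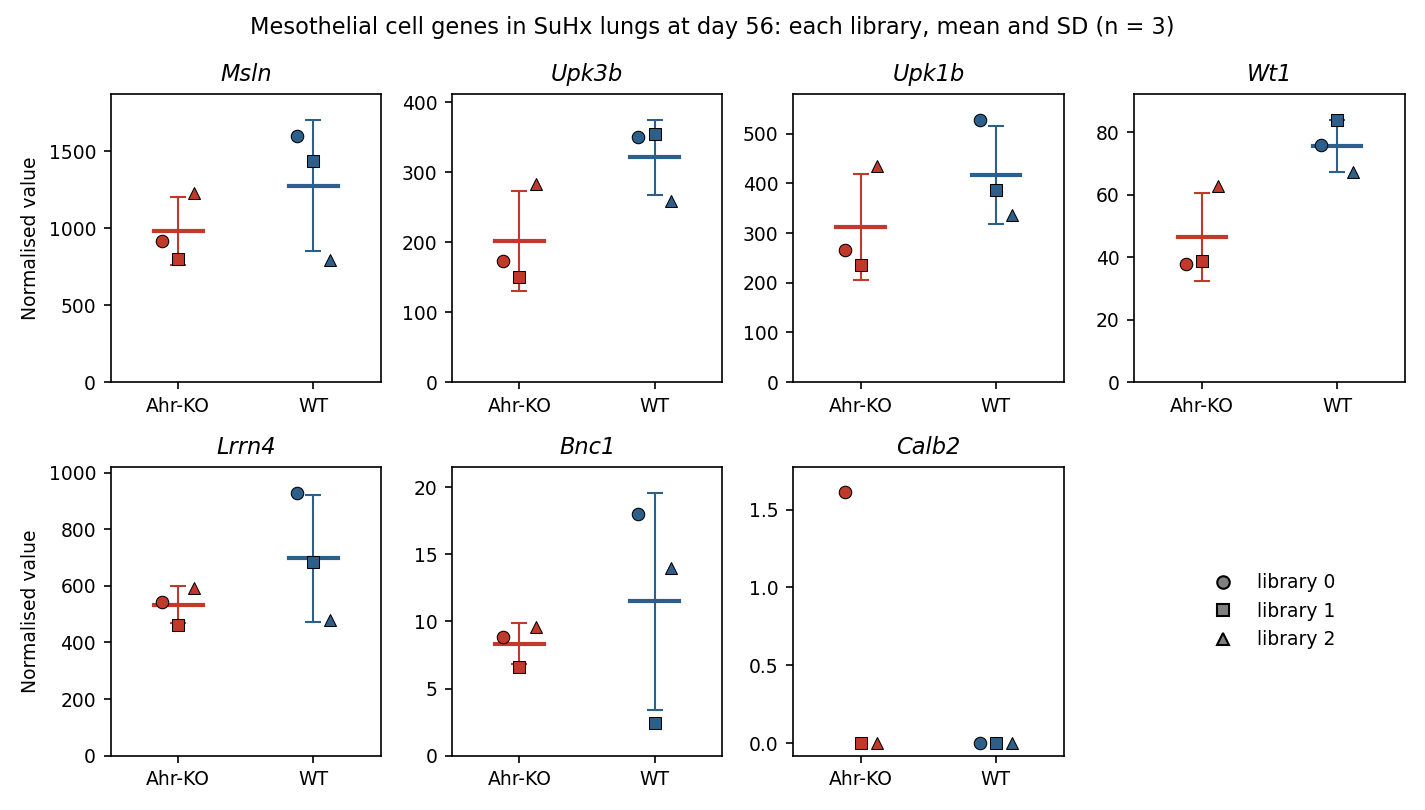
Normalised value of each of the 7 mesothelial genes in the 3 Ahr-KO and 3 WT libraries. Symbols are libraries, thick bars the group mean and thin bars the SD (n = 3), not drawn for Calb2; the groups are apart only for Wt1, and Ahr-KO library 2 (triangle) is the highest Ahr-KO value of Msln, Upk3b, Upk1b, Wt1 and Lrrn4.

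Among the surface proteins, Msln encodes mesothelin, a GPI-anchored glycoprotein that binds the mucin MUC16. Its values were 919.6, 798 and 1226 in Ahr-KO libraries 0, 1 and 2, against 1601, 1437 and 793 in WT libraries 0, 1 and 2. The groups overlapped, since WT library 2 lay below each Ahr-KO library. The log2 fold change was -0.34 ± 0.27 (SE), with a 95% interval of -0.96 to 0.28 and an adjusted p of 0.46 (limma-trend).

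Upk3b and Upk1b encode uroplakins, membrane proteins first known from the plaques of the bladder lining, and UPK1B is a tetraspanin. Upk3b stood at 172, 149.6 and 282 in Ahr-KO libraries 0, 1 and 2, against 349.9, 354 and 259 in WT libraries 0, 1 and 2. Only Ahr-KO library 2 and WT library 2 crossed, and the other libraries of each group were well apart. Its log2 fold change was -0.71 ± 0.25 (95% interval -1.29 to -0.13, unadjusted p = 0.023, adjusted p = 0.11, limma-trend). Upk1b stood at 265, 236 and 434 in Ahr-KO libraries, against 528, 387 and 337 in WT libraries, in the same order of library numbers. Again Ahr-KO library 2 reached into the WT range, here above WT libraries 1 and 2, and the difference was smaller (log2 -0.45 ± 0.26, 95% interval -1.04 to 0.15, adjusted p = 0.30, limma-trend).

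Other uroplakin genes, some of which build bladder plaques, were read beside them. Upk3bl1, Upk2 and Upk3a were each at or below 4.13 in Ahr-KO libraries, and in WT libraries Upk3a stood at 36, 4.11 and 4.2 and the other two at or below 2.8. Upk1a, the tetraspanin partner of UPK2, rose to 40.3, 26.4 and 17.7 in Ahr-KO libraries, against 7, 8.21 and 4.2 in WT libraries (log2 1.93 ± 0.41, adjusted p = 0.026, limma-trend). It was the 1 of 3 tested genes on that list to pass, against 10.8% of all tested genes in either direction. Its call was lost when WT library 0 or an Ahr-KO library, whichever of the 3, was left out (highest adjusted p = 0.085). It was also thinly read in WT libraries. The list's median log2 fold change, -0.97, was that of Upk3bl1 alone, which was close to absent and met the filter only through its WT libraries. The span of Upk3b overlaps that of the long noncoding RNA LOC120095913 in the RefSeq annotation. Strand and exon overlap of the pair were not checked, and whether reads were counted by strand is not given in the sources used here. Whether reads of the pair were kept apart is thus not known.

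Lrrn4 encodes a leucine-rich repeat membrane protein. It stood at 543, 463 and 594 in Ahr-KO libraries 0, 1 and 2, against 927, 685 and 479 in WT libraries 0, 1 and 2. WT library 2 lay inside the Ahr-KO range, above Ahr-KO library 1, and the SD was 66 in Ahr-KO and 224 in WT. The difference was -0.34 ± 0.23 on the log2 scale (95% interval -0.87 to 0.18, adjusted p = 0.37, limma-trend).

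Wt1 encodes the Wilms tumour transcription factor, which marks the mesothelium and is needed for kidneys and gonads to form in mice. Its values were 37.9, 38.8 and 62.8 in Ahr-KO libraries 0, 1 and 2, against 76, 83.8 and 67.1 in WT libraries 0, 1 and 2. It was the only tested member of 6 whose groups did not overlap, as was so, with Ahr-KO lower, for 17.4% of all tested genes. The gap between Ahr-KO library 2 and WT library 2 was narrow, and the log2 fold change of -0.72 ± 0.26 did not pass the threshold (95% interval -1.32 to -0.12, unadjusted p = 0.024, adjusted p = 0.12, limma-trend). About 46 to 47 estimated reads lay behind each Ahr-KO value of Wt1 and 48 to 102 behind each WT value, the fewest of the tested members after Bnc1.

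The remaining members were low. Bnc1, the zinc finger protein basonuclin 1 of basal keratinocytes and germ cells, stood at 8.87, 6.61 and 9.55 in Ahr-KO libraries, against 18, 2.46 and 14 in WT libraries. An estimated 7 to 11 reads lay behind each Ahr-KO value and 3 to 18 behind each WT value. Relative to the mean, its WT libraries were the most scattered of the tested members, and the interval of the log2 fold change was wide, -1.59 to 1.38 around -0.11 (adjusted p = 0.94, limma-trend). Calb2 was below the filter for testing: it was listed at 1.61, an estimated 2 reads, in Ahr-KO library 0 and at 0 in the other 5 libraries. Calretinin is a standard stain for human mesothelium, but its RNA was too low here to be compared.

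**Figure D2:**
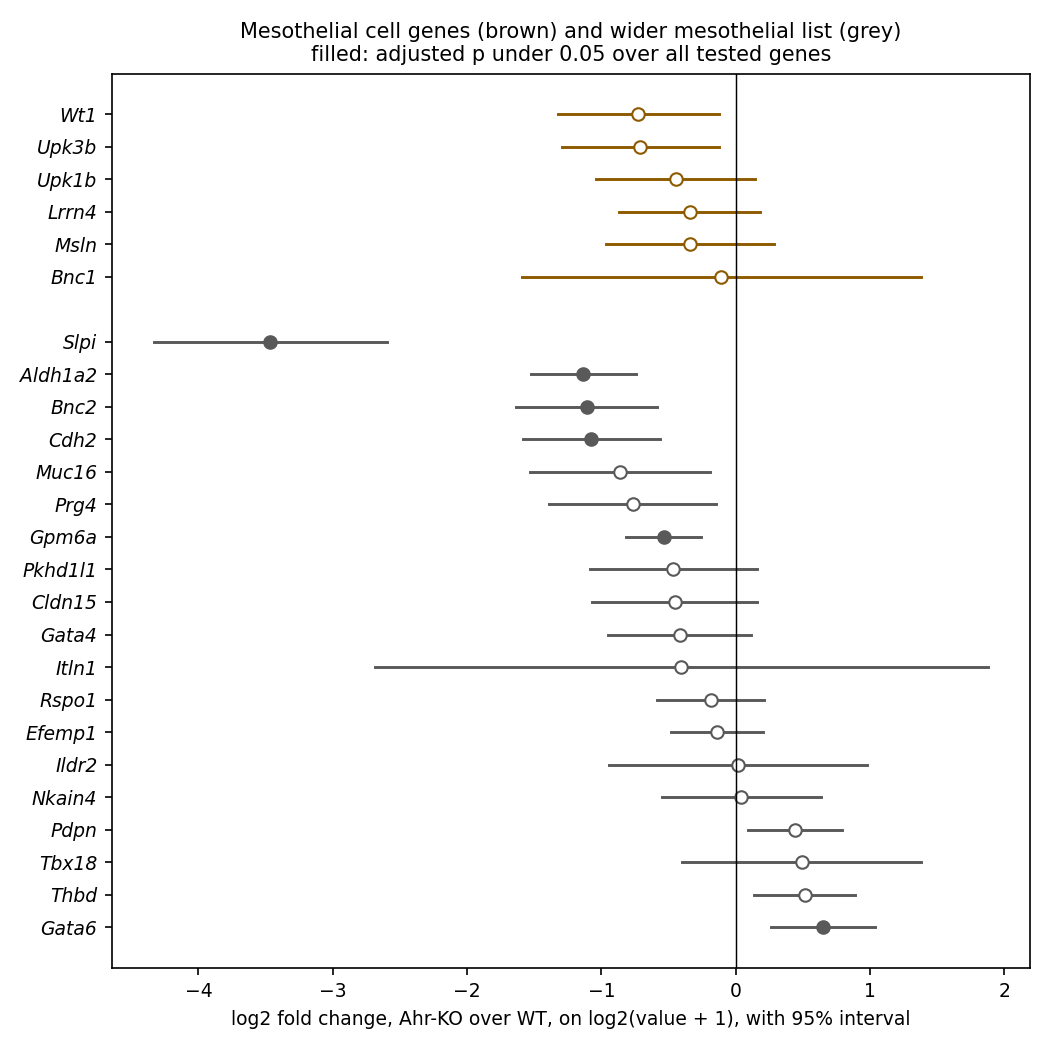
Log2 fold change (Ahr-KO over WT, on log2(value + 1)) with its 95% interval for the 6 tested mesothelial genes and the 19 tested genes of the wider mesothelial list. Filled points passed an adjusted p of 0.05 over all tested genes; 0 of the 6 members are filled, and on the wider list Slpi, Aldh1a2, Bnc2, Cdh2 and Gpm6a lie below 0 and Gata6 above it.

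The members other than the thinly read Bnc1 and Calb2 placed library 2 alike within each genotype. Of the 5 members with a mean value of at least 20, the highest Ahr-KO value was in library 2 for 5 of 5, and the lowest WT value was in library 2 for 5 of 5. The other libraries were not placed alike: the lowest Ahr-KO value was in library 1 for 4 members and in library 0 for Wt1, and the highest WT value was in library 0 for 3 members and in library 1 for Upk3b and Wt1. Ahr-KO library 2 exceeded the mean of Ahr-KO libraries 0 and 1 by a ratio of 1.18 for Lrrn4, 1.43 for Msln, 1.64 for Wt1, 1.73 for Upk1b and 1.75 for Upk3b. Over 13217 tested genes with a mean of at least 20, the median of the same ratio was 1.01 and its 95th percentile 1.34, so 4 of the 5 members lay above that percentile. WT library 2 stood at a ratio of 0.52 for Msln, 0.59 for Lrrn4, 0.74 for Upk3b, 0.74 for Upk1b and 0.84 for Wt1 to the mean of WT libraries 0 and 1. There the median over all those genes was 0.997 and the 5th percentile 0.62, and Msln and Lrrn4 lay below it.

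Ratios between members, which do not depend on the scaling of a library, moved less than the levels of both genes, except Upk1b over Upk3b in WT libraries. Upk1b over Upk3b was 1.54, 1.57 and 1.54 in Ahr-KO libraries 0, 1 and 2, against 1.51, 1.09 and 1.3 in WT libraries 0, 1 and 2. The Ahr-KO libraries were thus nearly equal in this ratio while both genes differed between them. Upk3b over Wt1 was 4.55, 3.85 and 4.5 in Ahr-KO libraries, against 4.61, 4.23 and 3.85 in WT libraries. Msln over Lrrn4 was 1.69, 1.72 and 2.07 in Ahr-KO libraries, against 1.73, 2.1 and 1.65 in WT libraries. These are ratios of values not corrected for transcript length, so only their change between libraries can be read. The ranges of the groups overlapped for the last 2 of these ratios, and for Upk1b over Upk3b the Ahr-KO libraries were all above the WT ones, by little over WT library 0.

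The summed value of the 7 genes was 1948, 1691 and 2608 in Ahr-KO libraries 0, 1 and 2, against 3500.4, 2949 and 1949.6 in WT libraries 0, 1 and 2. Only WT library 2 fell within the Ahr-KO range. The group means were 2082.5 ± 473 in Ahr-KO and 2799.7 ± 786 in WT (SD, n = 3 each), a ratio of 0.74. Msln makes up much of this sum, and without it the sums were 1029, 893 and 1382 in Ahr-KO libraries, against 1899 (library 0), 1512 and 1156 in WT libraries, with the same library of each group nearest the other.

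**Figure D3:**
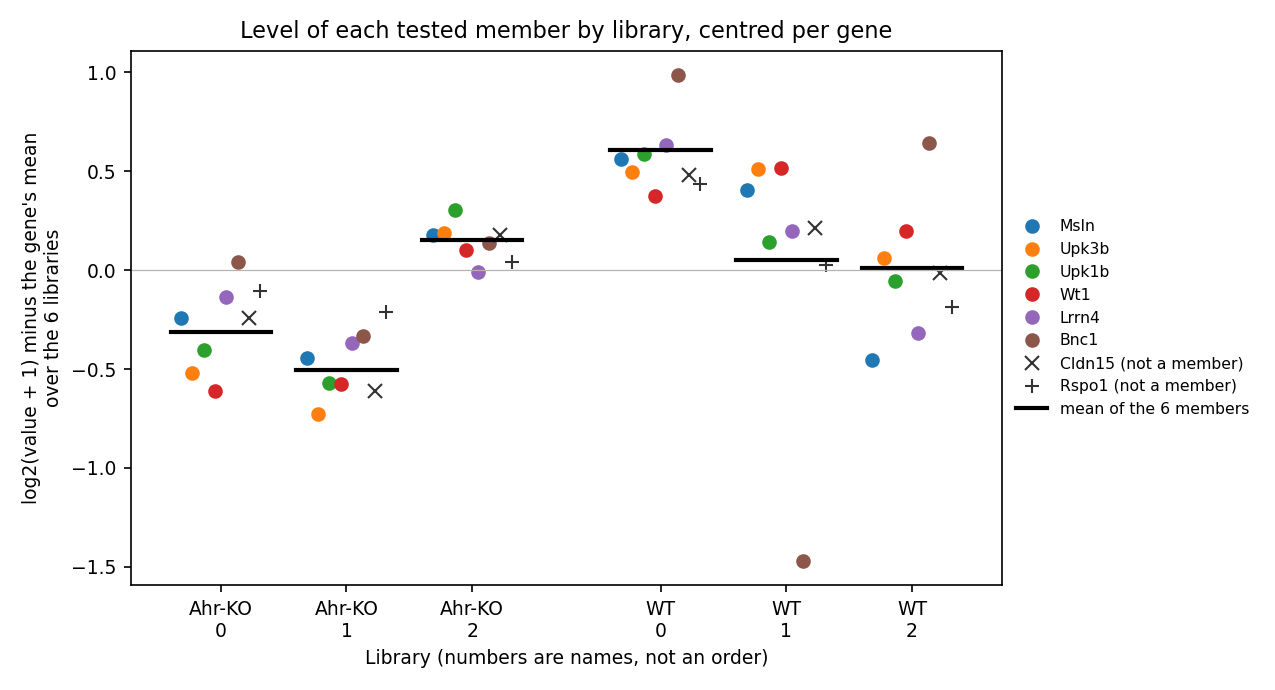
Level of each tested mesothelial gene in each library as log2(value + 1) minus that gene's mean over the 6 libraries, with black bars for the mean of the 6 genes. Ahr-KO libraries 0 and 1 lie at a mean of -0.31 and -0.50, Ahr-KO library 2 at 0.15 and WT libraries 0, 1 and 2 at 0.61, 0.05 and 0.01; crosses and plus signs are Cldn15 and Rspo1, which are not members. The thinly read Bnc1, at -1.47 in WT library 1, lowers the mean there. Without Bnc1 the means were -0.38, -0.54 and 0.15 in Ahr-KO libraries 0, 1 and 2. In WT libraries 0, 1 and 2 they were then 0.53, 0.35 and -0.11.

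Of the genes outside the 7, Cldn15 was closest to the mean profile of the 6 tested members, an order that changed when Bnc1 was left out. Likeness was measured as the root mean square difference, over the 6 libraries, between a gene's centred log2(value + 1) and the mean centred profile of the tested members. Cldn15, a claudin of leaky tight junctions, stood at 54.8, 42.1 and 73.7 in Ahr-KO libraries, against 91, 75.6 and 64.3 in WT libraries. Its distance of 0.10 ranked 2 among 13217 genes, after Upk1b, which contributes to the profile itself. Rspo1, a secreted WNT agonist, ranked 54 (distance 0.19). Outside all gene lists the nearest genes were Igsf3, Enox1, Rap1gap2, Gfm2, Myc and Fam109b, with distances of 0.11 to 0.14.

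The thinly read Bnc1 had a large part in that order. With Bnc1 left out of the mean profile, 1 of those 6 genes, Myc, was still among the nearest 6, and the others were Tmem120b, Jak3, Epha2, Rbm38 and Plekha6. Tmem120b then ranked 1 (distance 0.070), ahead of Cldn15 at rank 2 (distance 0.098), and Upk1b ranked 5, Upk3b 8, Msln 18, Lrrn4 37, Wt1 48 and Rspo1 169. Members left in the profile contribute to it, and none of the ranks is a test.

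Further genes with mesothelial expression were counted on a wider list of 20, of which 19 were tested. On it 5 fell, 1 rose and 13 did not pass, against 6.26% lower and 4.5% higher among all tested genes, and the median log2 fold change was -0.42. The summed level went the other way, 45245 to 51211 in Ahr-KO libraries and 34337 to 41309 in WT libraries, because Thbd and Pdpn, which endothelium and alveolar type 1 cells also make, hold most of it. Aldh1a2, which makes retinoic acid and is active in mesothelium and fibroblasts, fell to 376, 365 and 428 in Ahr-KO libraries, against 1093, 811 and 704 in WT libraries (log2 -1.13 ± 0.17, adjusted p = 0.0093, limma-trend). Slpi, a secreted protease inhibitor, fell to 28.2, 11.6 and 12.3 in Ahr-KO libraries, against 142, 184 and 246 in WT libraries (log2 -3.46 ± 0.38, adjusted p = 0.0040, limma-trend). For both genes the groups were far apart in every library, and both kept their call in 16 of 16 alternative fits.

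Cdh2, which encodes N-cadherin, fell 2.11-fold, Bnc2, the relative of Bnc1, fell 2.16-fold and Gpm6a, a membrane glycoprotein also known from neurons, fell 1.45-fold (adjusted p = 0.023, 0.023 and 0.030, limma-trend). Gata6, a transcription factor also of alveolar epithelium and vessels, rose 1.57-fold (adjusted p = 0.046). Each of these 4 calls was lost on leaving out Ahr-KO library 1, and also on leaving out Ahr-KO library 2. Of 16 alternatives, Cdh2 kept its call in 11, Bnc2 in 10, Gpm6a in 9 and Gata6 in 4. Without WT library 0 the calls of Gpm6a, Bnc2 and Gata6 were lost too, without WT library 1 those of Gpm6a, Cdh2 and Gata6, and without WT library 2 that of Gata6 (highest adjusted p over these fits 0.15). The list then had 2 members past the threshold without Ahr-KO library 1, and 3 without Ahr-KO library 2 or without WT library 0. Muc16, the mucin that mesothelin binds, was at 253, 163 and 402 in Ahr-KO libraries, against 506, 436 and 453 in WT libraries and did not pass (adjusted p = 0.099), though it did with limma-voom (adjusted p = 0.044) and without Ahr-KO library 2, where it is 1 of the 3 (adjusted p = 0.047). Prg4, the lubricant proteoglycan 4, did not pass either (adjusted p = 0.11), except without Ahr-KO library 0 (adjusted p = 0.024). Dmkn was below the filter, with 0.83 in Ahr-KO library 1 and 0 elsewhere.

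None of the wider genes is made by mesothelium alone, and lists for other cells moved beside them. Among all tested genes 6.26% fell and 4.5% rose at an adjusted p under 0.05 (limma-trend). Of 10 fibroblast genes 4 fell and 0 rose, Col1a1 (2.6-fold), Col14a1 (2.82-fold), Pi16 (2.41-fold) and Col3a1 (1.57-fold), with a median log2 fold change of -0.72, and the summed level of that list was 32703 to 41266 in Ahr-KO libraries and 51365 to 62583 in WT libraries. Pi16 kept its call in 3 and Col3a1 in 2 of the 6 fits that left out a library (highest adjusted p = 0.068 and 0.075). Of 8 airway secretory genes 2 fell, Scgb3a1 to between 8.18 and 48.4 in Ahr-KO libraries, against 208 to 561 in WT libraries, and Bpifa1 to between 0 and 0.81 in Ahr-KO libraries, against 34 to 1386 in WT libraries. Bpifa1 met the filter only through its WT libraries, so it could enter the test only by being high there. It was not tested in the fits that left out a WT library. Bpifa1 did not pass with limma-voom (adjusted p = 0.24) or once Ahr-KO library 2 was dropped (adjusted p = 0.053). The median log2 fold change of the airway list was -1.21, while its summed level, set mostly by Scgb1a1, was 171571 to 280618 in Ahr-KO libraries and 181935 to 224014 in WT libraries. Of 9 alveolar epithelial genes 3 rose (Ager, Hopx and Rtkn2; median log2 fold change of the list 0.47), and the list summed to 707355 to 794223 in Ahr-KO libraries and 535193 to 591414 in WT libraries. Hopx kept its call when each library was left out, and Ager and Rtkn2 kept theirs in 2 of 6 such fits (highest adjusted p = 0.12 and 0.094). The part of these cells in the values of Aldh1a2, Slpi, Cdh2, Bnc2, Gpm6a and Gata6 was not tested.

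Of 4 simple keratins that mesothelium shares with lung epithelium, 2 rose and 0 fell (median log2 fold change 0.67). Among all tested genes 4.5% rose and 6.26% fell. Krt7 rose to 10889, 10754 and 12492 in Ahr-KO libraries, against 3693, 5123 and 3893 in WT libraries (log2 1.44 ± 0.14, adjusted p = 0.0031, limma-trend). Krt19 rose 1.94-fold (adjusted p = 0.0054), and Krt8 and Krt18 did not pass (adjusted p = 0.074 and 0.38). Of 6 genes listed as epithelial, such as Epcam and Cdh1, 0 passed at an adjusted p under 0.05, against 10.8% of all tested genes. Of the 6, 4 had an unadjusted p under 0.05 (limma-trend), each higher in Ahr-KO, against 27.9% of all tested genes in either direction. Whether mesothelium adds to their values was not tested. The median log2 fold change of the list was 0.35, with a summed level of 13903 to 15775 in Ahr-KO libraries and 11406 to 13041 in WT libraries.

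Hyaluronan genes and genes of the change from mesothelial to mesenchymal state were read as well. Of 7 genes on a list of hyaluronan genes plus Ptgis, 0 passed, against 10.8% of all tested genes in either direction. The hyaluronan genes on it were Has1, Has2, Has3, Cd44, Hyal1 and Hyal2. At an unadjusted p under 0.05 (limma-trend) there were 4, against 27.9% of all tested genes. Of these, Has1, Has2 and Cd44 were lower in Ahr-KO and Hyal1 was higher. The median log2 fold change of the list was -0.43, and its summed level was 7278 to 12884 in Ahr-KO libraries and 9431 to 10458 in WT libraries. Has1, a hyaluronan synthase that mesothelial cells use, was at 6.45, 9.09 and 10.9 in Ahr-KO libraries, against 40, 26.3 and 15.4 in WT libraries (log2 -1.45 ± 0.42, adjusted p = 0.063, limma-trend). Its groups did not overlap, but it was thinly read. On the list of the mesothelial to mesenchymal change 2 of 10 tested genes fell, against 6.26% of all tested genes, and 0 rose. The median log2 fold change of that list was -0.25. Those that fell were the growth factor gene Tgfb1 (2.02-fold) and the matrix gene Fn1 (2.21-fold), with adjusted p = 0.0051 and 0.017 (limma-trend). The factors Snai1, Snai2, Twist1, Zeb1 and Zeb2 and the intermediate filament gene Vim did not pass. Fn1 lost its call when WT library 0, or library 1 or 2 of Ahr-KO, was left out (highest adjusted p = 0.070). All these genes are active in many lung cells besides mesothelium.

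Lists for heart muscle, fat, airway basal cells and neuroendocrine and neuronal cells were read beside these. Among all tested genes 6.26% fell and 4.5% rose at an adjusted p under 0.05, and 27.9% had an unadjusted p under 0.05 (limma-trend). Of 6 cardiac muscle genes 0 passed (0 also at an unadjusted p under 0.05, limma-trend; median log2 fold change -0.55), and their summed level was 2248, 2205 and 1597 in Ahr-KO libraries 0, 1 and 2, against 838, 1922 and 6012 in WT libraries 0, 1 and 2. WT library 2, the lowest WT library in 5 mesothelial genes, had the highest cardiac sum. Ahr-KO library 2, the highest Ahr-KO library in those genes, had the lowest sum of the Ahr-KO libraries, but its cardiac genes differed: Myh6 and Myl7 were listed at 0 and Actc1 was at 1476, against 775 and 936 in Ahr-KO libraries 0 and 1. The lowest cardiac sum of the 6 libraries was in WT library 0. Of 4 tested adipose genes 1 fell, Pck1 (6.95-fold on log2(value + 1), adjusted p = 0.015, limma-trend). It was thinly read, at 4.03, 0.83 and 2.73 in Ahr-KO libraries, against 28, 25.5 and 14 in WT libraries. Its call was lost when Ahr-KO library 2, or library 0 or 1 of WT, was left out (highest adjusted p = 0.060). The median log2 fold change of the adipose list was -0.58 and its summed level 211 to 357 in Ahr-KO libraries and 337 to 459 in WT libraries, with Ucp1 at 0 in each library and Lep and Plin1 at 0 in each Ahr-KO library. Of 4 tested genes of airway basal cells, a cell type in which Bnc1 can also be active, 0 passed (1 at an unadjusted p under 0.05). Their median log2 fold change was -0.70 and their summed level, mostly Krt15, was 74.4 to 146 in Ahr-KO libraries and 32 to 96.5 in WT libraries. The genes below 0, Krt14, Krt17 and Tp63, were thinly read, at or below 11.5 in each library. Krt15 went the other way (log2 1.195, adjusted p = 0.21, limma-trend). Of 9 neuroendocrine and neuronal genes 1 fell, Tubb3 (adjusted p = 0.044, limma-trend). It was thinly read, at 4.03, 2.48 and 0 in Ahr-KO libraries, against 11, 30.4 and 12.6 in WT libraries. Its call was kept in 1 of the 6 fits that left out a library (highest adjusted p = 0.13). At an unadjusted p under 0.05 (limma-trend) that list had 4 genes, against 27.9% of all tested genes. Of these, Calca was higher in Ahr-KO and Uchl1, Tubb3 and Resp18 were lower. The list's median log2 fold change, 0.06, was that of Chga, which was at or below 4.2 in each library. The list summed to 142 to 276 in Ahr-KO libraries and 143 to 284 in WT libraries. The part of these tissues in the mesothelial values was not tested.

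Promoter sequence was available for 5 of the 7 genes in RefSeq (build GRCr8; the 250 bases before the annotated start), and it is shown for Upk3b, the member with the lowest p, and for Wt1, the member whose groups did not overlap and which holds the only motif match. The windows were searched on both strands for GCGTG, the core of the dioxin response element that AHR binds, and for a core shared by WT1 and EGR factors, which is the same letters followed by 2 further G and so overlaps it. The dioxin response core was found in 1 of 5 members' windows and in 25.9% of all 33469 windows. The WT1 and EGR core was found in 0 of 5 and in 3.68% of all windows. Capitals mark the match, printed as its reverse complement because it lies on the minus strand, 127 bases before the start of Wt1. The Wt1 stretch lies at chr3:112021870-112021899 (plus strand), in a window that overlaps the span that the annotation gives to the gene. Whether the stretch itself lies inside that span was not checked. The Upk3b window lies at chr12:26274241-26274490 (minus strand), just outside the gene.
Upk3b: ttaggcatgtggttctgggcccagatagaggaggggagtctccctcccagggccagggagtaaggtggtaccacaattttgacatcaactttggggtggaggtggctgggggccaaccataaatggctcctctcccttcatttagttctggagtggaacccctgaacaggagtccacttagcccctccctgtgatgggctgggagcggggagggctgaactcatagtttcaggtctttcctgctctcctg
Wt1: ggcgtctcagcaCACGCtccgccgggagcc

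**Figure D4:**
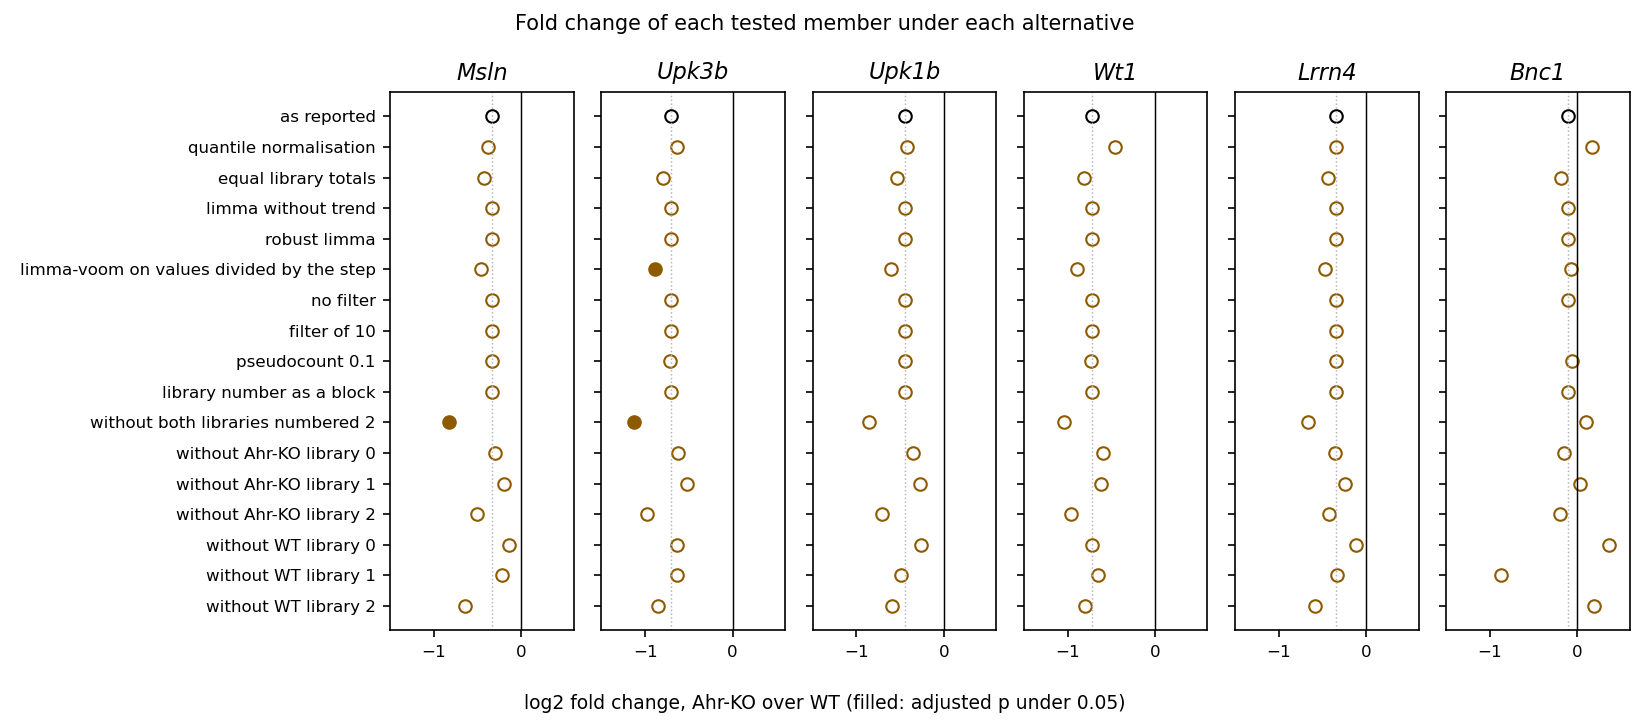
Log2 fold change (Ahr-KO over WT) of the 6 tested mesothelial genes as reported and under each alternative; filled points passed an adjusted p of 0.05. Upk3b passed with limma-voom and without both libraries numbered 2, and Msln passed without both libraries numbered 2; Bnc1 is the only gene with points on both sides of 0.

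Leaving out 1 library moved the members' fold changes without giving a call. Without WT library 2 the log2 fold change of Msln was -0.65 and that of Lrrn4 -0.59 (adjusted p = 0.057 and 0.062), and without WT library 0 they were -0.15 and -0.11 (limma-trend). Without Ahr-KO library 1 that of Msln was also nearer 0, at -0.20. Upk1b was at -0.71 without Ahr-KO library 2 and at -0.26 without WT library 0 (adjusted p = 0.13 and 0.59). No member passed in any of the 6 fits that left out 1 library. With both libraries numbered 2 left out, Upk3b was at -1.13 and Msln at -0.82 and both passed (adjusted p = 0.034 and 0.035, limma-trend with n = 2 each). That fit was chosen after the values were seen, and it removes the libraries in which these genes lay nearest to the other genotype, so larger differences follow from its construction and its calls support nothing. With limma-voom on the estimated reads, Upk3b passed (log2 -0.88, adjusted p = 0.046) and Wt1 was at an adjusted p of 0.054.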

How the data were processed

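Total lung RNA of 3 Ahr-KO and 3 WT samples was sequenced. Lysis was in Trizol, followed by a spin column and DNase, per the labels' protocols. FastQC and the build rn6 are named, per the submitters' processing notes. The sources used here do not give the aligner, counter, annotation or strandedness. For all libraries, the authors deposited 1 table of a normalised signal per gene symbol and library. Per the labels, no normalisation is described. In each library 97.4% to 97.9% of the deposited values above 0 were within 0.05 of whole multiples of 1 smallest step, so depth was estimated as the total divided by that step. The values were not treated as counts, except in the limma-voom alternative, which took each value divided by that step and rounded. Columns were tied only to a group, since their numbers run 0 to 2 and those of the titles 1 to 3. Since no label says whether each sample was a different animal, the spread behind the p-values may be technical. There were 0 columns left unused.

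Values were taken as log2(value + 1), the filter asked for a value of 1 or more in 3 or more libraries, and limma 3.58.1 (R 4.3.3) was fitted with genotype and a mean-variance trend over all 15386 genes. P-values are 2-sided, with Benjamini-Hochberg adjustment over all tested genes and a threshold of 0.05. An exact permutation test of 3 against 3 cannot go below 0.1. The code was tested on simulated data. One gene of a list is not reported here and was left out of its list's counts. The members and the 13 other gene lists were chosen with earlier results of these data known. Named are the members, list genes past the threshold or, on lists with none, up to 4 with the lowest p, the 6 genes nearest in profile outside the lists, and Cyp1a1 and Ahr. Other genes were named after their values were seen. Alternatives were other scalings, tests, filters, pseudocounts and thresholds, the library number as a block, and each library left out. The fit without both libraries numbered 2 was added after seeing the data.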

Additional observations from a re-analysis of the deposited data

How the results depend on the processing

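Msln, Upk3b, Upk1b, Wt1 and Lrrn4 kept a log2 fold change below 0 in each alternative fit. The number of members past the threshold was 0 in each alternative except limma-voom (1) and the fit without both libraries numbered 2 (2). Upk3b passed in those fits (-0.88 and -1.13) and Msln in the second (-0.82). Bnc1 changed direction after quantile normalisation (0.16), without both libraries numbered 2 (0.10), on leaving out Ahr-KO library 1 (0.04), WT library 0 (0.36) or WT library 2 (0.19), each far from the threshold. Leaving out 1 library gave 0 members past the threshold in each fit, 2 to 7 genes of the wider list and 407 to 1834 genes of all tested, against 1655 of 15386. Over the same fits the log2 fold change ranged from -0.65 to -0.15 for Msln, -0.98 to -0.52 for Upk3b, -0.71 to -0.26 for Upk1b, -0.96 to -0.60 for Wt1, -0.59 to -0.11 for Lrrn4 and -0.87 to 0.36 for Bnc1, and the ratio of the summed levels from 0.65 to 0.85. Counts over all genes were 952 without the trend, 899 with the library number as a replicate block, 553 without both libraries numbered 2, 2853 at an adjusted p under 0.10 and 676 with a fold of at least 2. The wider list had 3 genes with the block and 2 without both libraries numbered 2. No pairing of libraries by equal number was seen: deviations from the group means correlated at -0.10, 0.07 and -0.07 for numbers 0, 1 and 2. Unlike numbers correlated at -0.05 to 0.12, and with so few libraries this cannot exclude a pairing. With equal library totals 449 genes rose and 1314 fell and with limma-voom 436 rose and 1290 fell, and the median log2 fold change of all genes was -0.08 in both, against 0.01 as reported (692 rose and 963 fell). Without WT library 2, 930 rose and 904 fell. Without Bnc1, 1 of the 6 nearest genes was shared. Among the other genes named by the rule above, direction changed for Krt14 with a pseudocount of 0.1 (0.028), for Ahr after quantile normalisation (-0.0123), with equal totals (-0.0121) and with limma-voom (-0.0120), and for Tnnt2 (0.75), Myl7 (1.82) and Myh6 (2.22) without both libraries numbered 2. With 1 library left out it changed for Ahr (range -0.0614 to 0.293), Myl7 (-3.895 to 0.55), Myh6 (-3.893 to 0.91) and Actc1 (-0.10 to 0.713). On the wider list, direction changed for Nkain4 with equal totals (-0.047) and for Ildr2 without Ahr-KO library 2 (-0.29), among other alternatives. It also changed for Itln1 without WT library 2 (0.65) and for Efemp1 without WT library 0 (0.0096). The cause of these shifts was not tested. With 3 libraries a group, the 95% intervals of Msln, Upk1b and Lrrn4 include 0, and also falls to ratios of 0.51, 0.49 and 0.55, which this depth and number cannot exclude. Bnc1 and Calb2 were too thinly read for a comparison.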
